A study of Mus musculus with 18 samples.

Results

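Among bone marrow mesenchymal stem cells (MSCs) of old mice that had shared a culture well with young MSCs, 64 genes lay close to the level of young MSCs although young and old MSCs differed in them. Of these, 33 were higher in young and in rejuvenated old MSCs than in old MSCs and are called the rising genes. The other 31 were lower and are called the falling genes. The rising genes included enzymes and regulators of glycolysis and of the response to low oxygen, among them Ankrd37, Pgk1, Ldha, Aldoa, Tpi1, Pdk1, Egln1 and Mxi1, which were 1.74 to 5.05 times as high in rejuvenated old as in old MSCs. The falling genes included the secreted enzyme autotaxin (Enpp2), the matrix proteins Tnc and Sparc, the caveolar protein Cav1 and the glucose uptake inhibitor Txnip, which were 1.35 to 3.30 times as high in old as in rejuvenated old MSCs. For Sparc, Cav1 and Txnip only the mean was close to young, and no single rejuvenated old library lay within the young range. Those of Sparc and Txnip lay on both sides of it.

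The genes were chosen on these same values. A gene had to have a mean of at least 50 DESeq2-normalized counts over the 18 libraries, which 12203 of the 27179 listed genes had. With L as the log2 of a group's mean normalized count plus 1, its young and old values had to differ by at least 0.7 and its rejuvenated old value had to lie within 0.3 of the young one. The rising genes were 0.270% and the falling genes 0.254% of the 12203 genes. Because the rule used the young, old and rejuvenated old values, every difference between these groups is given for the 64 genes as a description, without a test. Where 3 ranges follow each other, they give the lowest and highest normalized count in young, old and rejuvenated old libraries, in that order. The plot of both differences for all 12203 genes shows where the 64 genes lie.

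**Figure D1:**
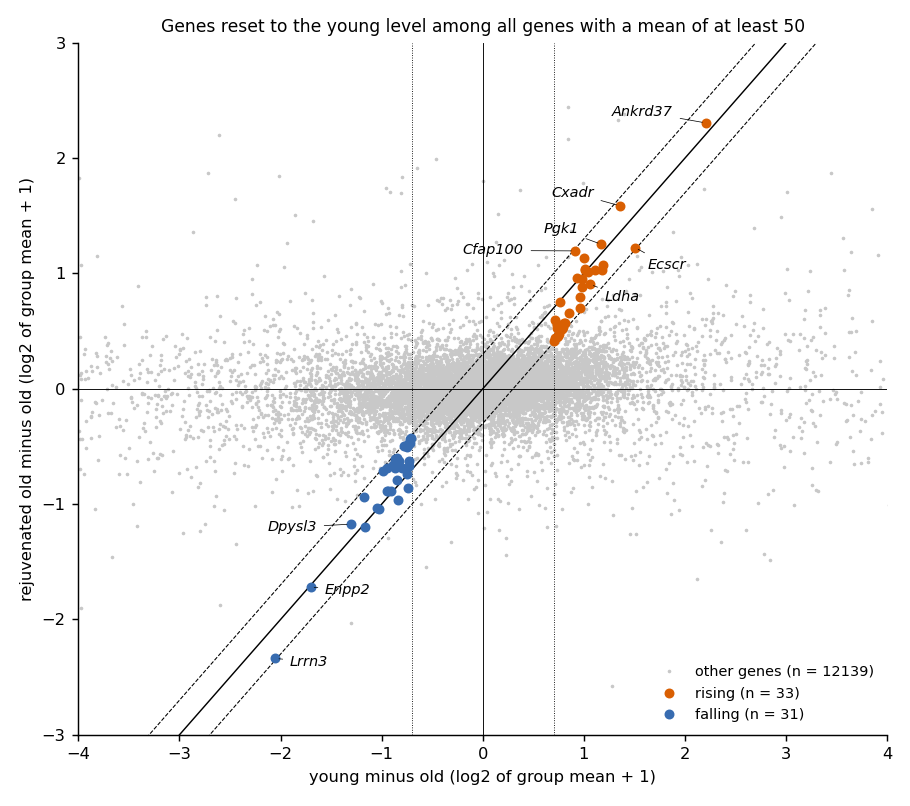
Difference in L between rejuvenated old and old MSCs (vertical axis, log2) against that between young and old MSCs (horizontal axis, log2) for genes with a mean of at least 50. The solid line marks equal levels in rejuvenated old and young MSCs, the dashed lines the limit of 0.3 and the dotted lines the limit of 0.7; the 33 rising genes (orange) and the falling genes (blue) lie between the dashed lines, most other genes lie near 0 on the vertical axis, and 599 of the 12203 genes, 1 of them a falling gene, lie outside the plotted range.

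MSCs are stromal cells of the marrow that can form bone and fat cells and that release growth factors. In glycolysis, aldolase, triose phosphate isomerase and phosphoglycerate kinase act in sequence on the way to pyruvate, and lactate dehydrogenase turns pyruvate into lactate. When oxygen is plentiful, prolyl hydroxylases such as Egln1 mark the hypoxia-inducible factors (HIFs) for destruction; when it is scarce, HIFs accumulate, bind DNA at the core sequence ACGTG and raise the transcription of glycolytic genes and of Egln1 itself. None of this was measured here other than as messenger RNA.

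All MSCs came from the bone marrow of male C57BL6 mice, were grown in the same serum-containing medium and were harvested for RNA at day 7. Young MSCs came from mice of 6 weeks and old MSCs from mice of 18 to 24 months, each cultured alone and untreated, and rejuvenated old MSCs were old MSCs kept for 7 days across a porous membrane from young MSCs, so that soluble factors but not cells could pass. Each group had 6 libraries labelled as biological replicates. How many mice or primary cultures stood behind the 6 libraries of a group is not given in the sources used here, so that spreads between libraries may be partly technical. No RNA library of old MSCs kept across from other old MSCs was used here, so that the age of the partner cells and the presence of a second cell layer cannot be told apart.

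The libraries held 22936251 to 29559194 reads on genes. Transcripts of the marker proteins CD44 and SCA-1 (Cd44 and Ly6a) were found in every library, with 2021 to 3239 and 5629 to 33910.0 normalized counts. Young libraries also held 6787 to 7191 normalized counts of Cd34, a blood progenitor marker, against 19.4 to 28.0 in old libraries, and no read of Ptprc (CD45), a marker of all white blood cells, against 162 to 208 in old libraries. The study used both proteins as markers that MSCs lack. The sum over 29 macrophage markers was 1138 to 1233 normalized counts in young, 20417 to 25089 in old and 20393 to 24405 in rejuvenated old libraries, and none of the 29 was at 3 reads or fewer in all libraries. It thus did not move towards young with the 64 genes. In bulk samples such as these, a change in the number of cells of a type and a change of RNA per cell cannot be told apart.

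The promoters of 5 of the genes are shown as a description of sequence. The rule chose the genes for moving alike, so nothing about a shared control is read from them. The reference table of RefSeq promoters (GRCm38.p6) held 25 of the 33 rising and 17 of the 31 falling genes. The Ankrd37 promoter is that of the rising gene with the largest difference, those of Tmem121b and Bhlhe41 belong to the falling genes with the largest differences among those in the table other than 1700122H20Rik, whose difference rests on 1 old library, and those of Pgk1 and Ldha were chosen after their values were seen, as glycolytic genes. Each runs up to 250 bases upstream of the listed transcript start, without bases that lie in an annotated exon, and matches to ACGTG on either strand are in capitals. The Ankrd37 and Ldha runs lie inside the spans that the RefSeq table gives for these genes, which begin further upstream than the listed start. The 250-base window of Ugcg, the rising gene with the next largest difference in the table, lay wholly in an annotated exon and was not printed. ACGTG was absent from it and from the windows of the rising genes Mif, Aldoa, Tpi1, Pdk1 and Mxi1.
Ankrd37 promoter, chr8:45999868-46000100, minus strand: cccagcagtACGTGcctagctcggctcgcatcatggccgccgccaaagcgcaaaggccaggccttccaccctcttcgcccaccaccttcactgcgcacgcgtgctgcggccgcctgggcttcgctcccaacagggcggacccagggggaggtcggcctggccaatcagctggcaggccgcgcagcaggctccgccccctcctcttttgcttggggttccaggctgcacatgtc
Pgk1 promoter, chrX:106186850-106187099, plus strand: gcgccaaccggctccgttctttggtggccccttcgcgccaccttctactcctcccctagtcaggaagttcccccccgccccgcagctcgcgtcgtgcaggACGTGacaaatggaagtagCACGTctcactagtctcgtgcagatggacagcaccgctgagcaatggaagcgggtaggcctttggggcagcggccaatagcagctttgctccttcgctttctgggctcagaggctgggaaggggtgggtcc
Ldha promoter, chr7:46845554-46845803, plus strand: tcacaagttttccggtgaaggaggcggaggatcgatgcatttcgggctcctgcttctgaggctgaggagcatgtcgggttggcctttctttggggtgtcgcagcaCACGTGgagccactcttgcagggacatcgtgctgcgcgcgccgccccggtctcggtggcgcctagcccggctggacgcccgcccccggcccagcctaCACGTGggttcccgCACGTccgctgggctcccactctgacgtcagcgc
Tmem121b promoter, chr6:120493947-120494196, minus strand: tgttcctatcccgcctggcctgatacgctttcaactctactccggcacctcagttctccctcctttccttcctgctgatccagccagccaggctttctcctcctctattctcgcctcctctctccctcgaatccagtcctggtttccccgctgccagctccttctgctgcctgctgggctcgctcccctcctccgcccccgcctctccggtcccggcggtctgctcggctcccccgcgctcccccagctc
Bhlhe41 promoter, chr6:145865559-145865670, minus strand: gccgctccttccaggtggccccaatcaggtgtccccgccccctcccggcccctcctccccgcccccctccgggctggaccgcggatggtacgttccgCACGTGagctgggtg
In these runs the sequence ACGTG matched 1 time in the Ankrd37 run, 2 times in that of Pgk1, 5 times in that of Ldha and 2 times in that of Bhlhe41, and not in that of Tmem121b. CACGTG, which reads ACGTG on both strands, counts 2 times. Over the whole 250-base windows, ACGTG was found for 4 of the 8 rising genes that are also on a glycolysis and hypoxia list described below (Ankrd37, Pgk1, Ldha and Egln1), for 5 of 25 rising genes (20.0%) and for 4 of 17 falling genes (23.5%). It was found for 22.05% of the 9579 genes of sufficient mean that had a promoter in the table. Of the other motifs searched on both strands, the GC box GGGCGG was in 18 of 25 rising and 9 of 17 falling promoters against 60.8% of all, the CCAAT box in 6 and 7 against 36.9%, and the AP-1 site TGANTCA in 2 and 1 against 4.20%. GGAATG was in 3 rising and 3 falling promoters against 10.3% of all, TGACGTCA in 2 and 0 against 2.76%, and the E-box CACGTG in 1 and 3 against 8.61%. A match describes the sequence only.

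Ankrd37, an ankyrin repeat protein whose gene is a known HIF target (chr8:45996908-46000414, minus strand, GRCm38), had the largest difference of the rising genes. It measured 113 to 209 (median 164) normalized counts in young, 26.9 to 43.6 (median 35.5) in old and 124 to 312 (median 157) in rejuvenated old libraries. Every young and rejuvenated old library lay above every old one, and rejuvenated old replicate 5 stood highest of all 18 libraries. The means ± SD (n = 6) were 166 ± 31.9, 35.2 ± 5.55 and 178 ± 67.8, a 4.72-fold difference between young and old and a 5.05-fold one between rejuvenated old and old. Parts of its exons lie opposite Lrp2bp and Ufsp2, and whether counting used strand is not given in the sources used here.

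The glycolytic enzymes followed in the order of the pathway. Aldoa, aldolase A (chr7:126795234-126800994, minus strand), measured 44013 to 46075 (median 45542) in young, 22438 to 24477 (median 23125) in old and 38274 to 45401 (median 39433) in rejuvenated old libraries. Tpi1, triose phosphate isomerase (chr6:124810586-124814158, minus strand), measured 23326 to 24831 (median 24384), 11712 to 13087 (median 12043) and 20807 to 24056 (median 22759.7) in the same order. For both enzymes the rejuvenated old libraries lay above all old ones, and 1 of 6 lay within the young range. Pgk1, phosphoglycerate kinase (chrX:106187100-106203699, plus strand), measured 14009 to 15771 (median 15423) in young, 6178 to 7839 (median 6489) in old and 14506 to 16861 (median 16249) in rejuvenated old libraries, so that its rejuvenated old mean lay above the young mean. Ldha, the A subunit of lactate dehydrogenase (chr7:46842274-46855627, plus strand), measured 27642 to 29606 (median 29334), 12876 to 14877 (median 13966) and 23969.6 to 29007 (median 25459.9). Relative to old, the rejuvenated old means were 1.74 times as high for Aldoa, 1.84 for Tpi1, 2.38 for Pgk1 and 1.87 for Ldha, and the young means 1.95, 1.98, 2.25 and 2.09 times. Ldha and Aldoa lie on chromosome 7, whose 880 genes with a mean of at least 50 had a median difference in L of 0.62 between young and old and of 0.06 between rejuvenated old and old. Aldoart1, a retrogene copy of Aldoa, also met the rule, with 219 to 305 in young, 122 to 173 in old and 225 to 318 in rejuvenated old libraries, and its counts are uncertain because near-identical copies can share reads.

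Regulators of this pathway showed the same pattern. Pdk1, the kinase that holds back pyruvate dehydrogenase and so keeps pyruvate from the mitochondrial citric acid cycle, measured 2364 to 2606 (median 2525) in young, 1210.2 to 1304 (median 1232) in old and 2547 to 3058 (median 2676) in rejuvenated old libraries, 2.19 times the old mean. Egln1, the HIF prolyl hydroxylase, measured 4099 to 4552 (median 4297), 2159.8 to 2240.0 (median 2210.4) and 3769 to 4909 (median 4235), with the rejuvenated old libraries spread around the young ones. Mxi1, a repressor that competes with Myc for its partner Max, measured 1669 to 1850.0 (median 1786), 829 to 927 (median 887) and 1507 to 2325 (median 1819), and 2 of its rejuvenated old libraries lay within the young range. For all 3 genes the 6 old libraries lay below the other 12.

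A list of 52 genes of glycolysis and the hypoxia response shows how far this pattern reached. It was drawn up with earlier results of these data known, including the rise of such genes, and is no independent support. Of its 50 genes with a mean of at least 50, 8 met the rule, all of them rising (16%, against 0.270% of all genes). Another 12 had moved less far towards the young level than the rule asks, and 3 had gone past it by more than 0.3. A further 8 lay farther from it than old MSCs did, by any amount, down to 0.14 in L for Ddit4 and 0.04 for Epas1. In 19, young and old differed by less than 0.7. Genes left short of young included the mitophagy receptor Bnip3 (differences in L of 1.36 between rejuvenated old and old and 1.88 between young and old), the endoplasmic reticulum oxidase Ero1l (1.15 and 1.52), the glycolytic enzymes Gpi1 (0.53 and 1.15) and Pkm (0.27 and 1.13), and Ndrg1 (1.23 and 6.32). Those past young were Ndufa4l2 (4.24 and 3.81), the prolyl hydroxylase Egln3 (2.38 and 1.39) and Higd1a (1.15 and 0.84). Some glycolytic and hypoxia genes were higher in rejuvenated old than in old MSCs although young MSCs lay near or below old ones, for example Pgam1 (0.78 and -0.01), Eno1 (0.75 and 0.18), Vegfa (0.74 and -0.16) and Gapdh (0.83 and -0.22). Gapdh had a mean of only 297 normalized counts, against 36411 for Aldoa and 19669 for Tpi1. Why it was so low was not tested, and its differences are uncertain. Adm, which encodes the vessel-dilating peptide adrenomedullin, and Stc1 were higher in rejuvenated old by 1.32 and 1.26 while young lay below old, with differences in L of -4.15 and -1.94.

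Across the 50 genes, limma's test on all genes (Benjamini-Hochberg adjusted p under 0.05) called 36 higher in rejuvenated old than in old MSCs and 6 lower, and the median difference in L was 0.58. Of all 14353 genes tested, 21% were called higher and 20.6% lower, and the median over the 12203 genes was 0.01. Between young and old, 34 of the 50 were called higher in young and 13 lower, where 41.6% and 44.1% of all tested genes were, with a median of 0.77. Without the 8 genes that met the rule, 28 of 42 were called higher and 6 lower in rejuvenated old, with a median of 0.41. These 42 were listed with the same earlier results known, so their counts are no independent support either. Between rejuvenated old and young, 21 of the 50 were called higher and 22 lower, shares near those of all tested genes (44.1% and 41.5%).

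**Figure D2:**
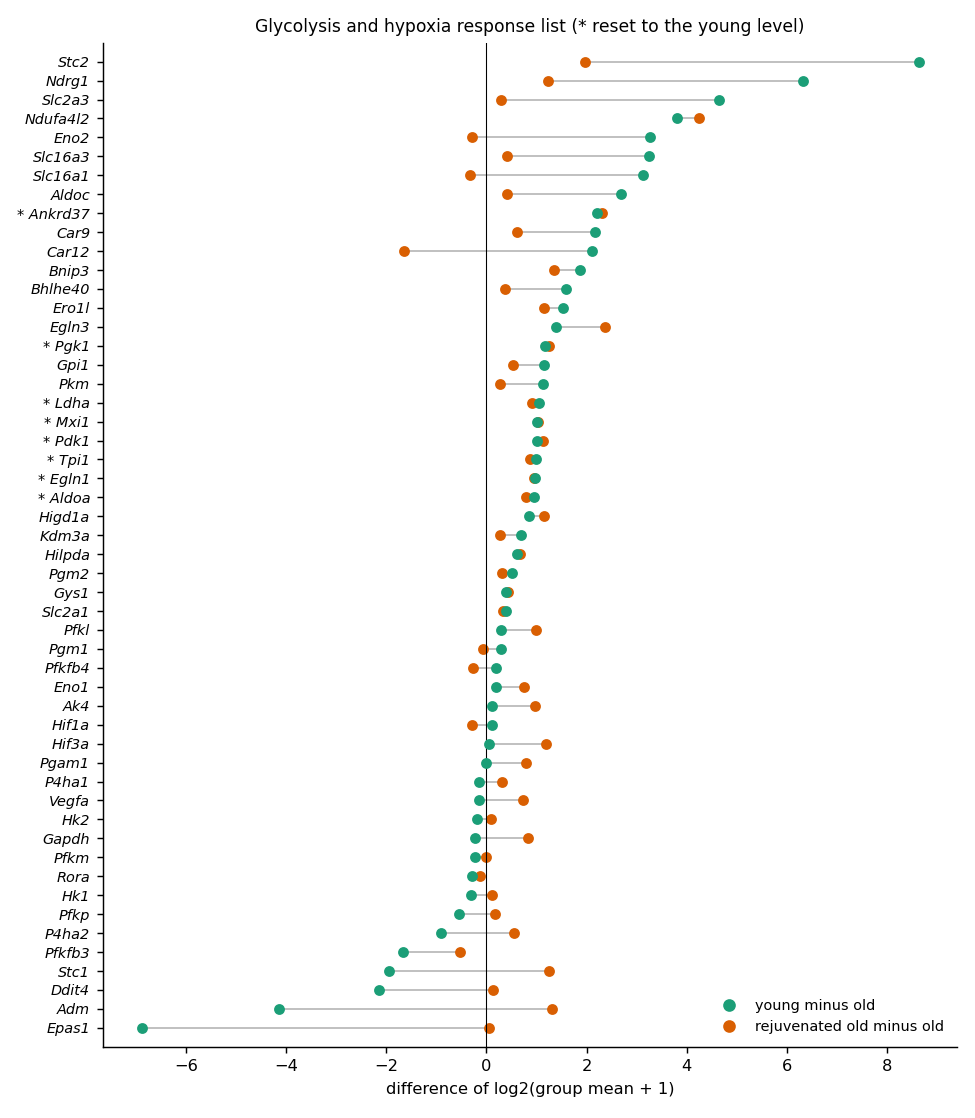
Difference in L (log2) from old MSCs for each of the 52 genes of the glycolysis and hypoxia response list, in young (green) and in rejuvenated old MSCs (orange), ordered by the young value. For the 8 genes marked with an asterisk both points lie within 0.3 of each other and at least 0.7 from 0 for young; for Ndrg1, Stc2 and Slc2a3 the orange point lies far short of the green one, and for Adm and Stc1 the points lie on opposite sides of 0. Rora and Hif3a, with a mean under 50, are plotted but not among the 50.

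Rising genes outside that list were grouped by role. Secreted proteins were the first group. Mif, a cytokine with macrophage-attracting activity, measured 13793 to 15235 (median 14543) normalized counts in young, 5974 to 7078 (median 6299.9) in old and 11789 to 15226 (median 12939) in rejuvenated old libraries. It was 2.04 times as high in rejuvenated old as in old MSCs, and only replicate 5 reached the young range. Clu, the extracellular chaperone clusterin, measured 1269 to 1391 (median 1340.5) in young and 601 to 698 (median 652) in old libraries. In rejuvenated old libraries it measured 994, 1170.5 and 1058 in replicates 1 to 3 and 1634, 1548 and 1505 in replicates 4 to 6. None of the 6 lay within the young range, so that the mean met the young level and the single libraries did not. Vegfb, a ligand of the vascular endothelial growth factor family, measured 2371 to 2672 (median 2538), 1440.1 to 1599 (median 1539.7) and 1997 to 2302 (median 2067), and none of its rejuvenated old libraries reached the young range. It was the 1 gene to meet the rule among 49 growth factor genes with a mean of at least 50. Of all genes with that mean 0.270% were rising, and nothing is read from 1 gene. Thpo, thrombopoietin, the growth factor of platelet precursors, measured 92.7 to 153, 60.3 to 108 and 78 to 152, and its old libraries overlapped both other groups.

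Surface proteins, given together with the cilia protein Cfap100, were the second group. Ecscr, a membrane protein known from endothelial cells, measured 55.7 to 87.5 (median 68.9) in young, 19.7 to 31.2 (median 23.1) in old and 46.3 to 70.5 (median 57.8) in rejuvenated old libraries, 2.39 times the old mean. The summed count of 20 endothelial markers, Ecscr among them, was 564 to 723 in young, 393 to 431 in old and 429 to 492 in rejuvenated old libraries, and the endothelial markers Tie1, Cldn5, Robo4 and Sox17 had 3 reads or fewer in every library. Cxadr, a cell junction protein that also serves as a virus receptor, measured 168 to 222 (median 187), 53.8 to 80.8 (median 78.7) and 165 to 291 (median 219). It lay in replicates 1 to 3 of rejuvenated old between 165 and 197 and in replicates 4 to 6 between 240.5 and 291. Cfap100, a protein of cilia and flagella, went farthest past young, with 214 to 269.9 in young, 105 to 147 in old and 227 to 403 in rejuvenated old libraries, where replicates 4 to 6 again were the 3 highest. Gpr176, an orphan G protein-coupled receptor, measured 1592 to 1834, 960.2 to 1075 and 1473 to 1644.

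Enzymes of lipids and small molecules were the third group. Ugcg, the enzyme that makes glucosylceramide, the first step to most glycosphingolipids, measured 4839 to 5201 (median 4896) in young, 1982 to 2489 (median 2134) in old and 4238 to 4840.5 (median 4641) in rejuvenated old libraries. All of its rejuvenated old libraries were at least 4238, above the highest old library, and 1 reached the young range. Plcb4, a phospholipase C that acts downstream of G proteins, measured 309.8 to 431 (median 403), 167 to 206 (median 172) and 297 to 462 (median 356). As3mt, an arsenic methyltransferase, measured 110.3 to 135 (median 124), 50.2 to 74.3 (median 59.6) and 113 to 139 (median 122), with 4 of 6 rejuvenated old libraries inside the young range for both Plcb4 and As3mt. Smaller differences in L between rejuvenated old and old were found for Parp16, an ADP-ribosyltransferase of the endoplasmic reticulum (0.57), Pdxp, a pyridoxal phosphate phosphatase (0.55), Atp10d, of a family of lipid-transporting ATPases (0.48), and Pafah1b3, a subunit of platelet-activating factor acetylhydrolase (0.45). The young-old differences of these 4 were 0.81, 0.73, 0.75 and 0.73. Of the exon bases of Pdxp, 45.1% are shared with the predicted gene Gm49510 on the same strand, so that its counts are uncertain.

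Regulatory genes were the fourth. Fos, part of the AP-1 transcription factor that is induced within minutes of a stimulus, measured 326 to 424 (median 377) in young, 170.3 to 214 (median 187) in old and 241 to 342 (median 319.5) in rejuvenated old libraries. Nr4a2, an orphan nuclear receptor of the same early wave, measured 239 to 322 (median 264), 145 to 186 (median 162) and 205 to 271 (median 230.4). These were 2 of 26 immediate early genes with a mean of at least 50, for which the median difference in L was 0.83 between young and old and 0.12 between rejuvenated old and old. Of all genes with that mean 0.270% were rising, and nothing is read from 2 genes. Rapgef2, an activator of the small GTPase Rap, lay 0.57 above old in rejuvenated old, and Nop56, a core protein of the particles that methylate ribosomal RNA, lay 0.54 above it. None of the rejuvenated old libraries of Nop56 (3037 to 3414) reached its young range (3762 to 4068). Snord12, a small nucleolar RNA of the class that these particles carry, was the gene nearest the limits, with 56.7 to 86 in young, 40.9 to 57.7 in old and 39.1 to 79 in rejuvenated old libraries, all groups overlapping. The libraries were made from polyadenylated RNA, which mature small nucleolar RNAs lack. Ifi47, an interferon-inducible GTPase, measured 1198 to 2006 in young and 1125 to 2052 in rejuvenated old libraries, and old libraries ran from 583 to 1807 with replicate 2 highest. Mss51, a mitochondrial protein (0.65), the long noncoding RNA 5730408K05Rik (0.52) and the pseudogene Gm6988 (0.45), whose reads may come from near-identical copies, were the remaining rising genes.

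**Figure D3:**
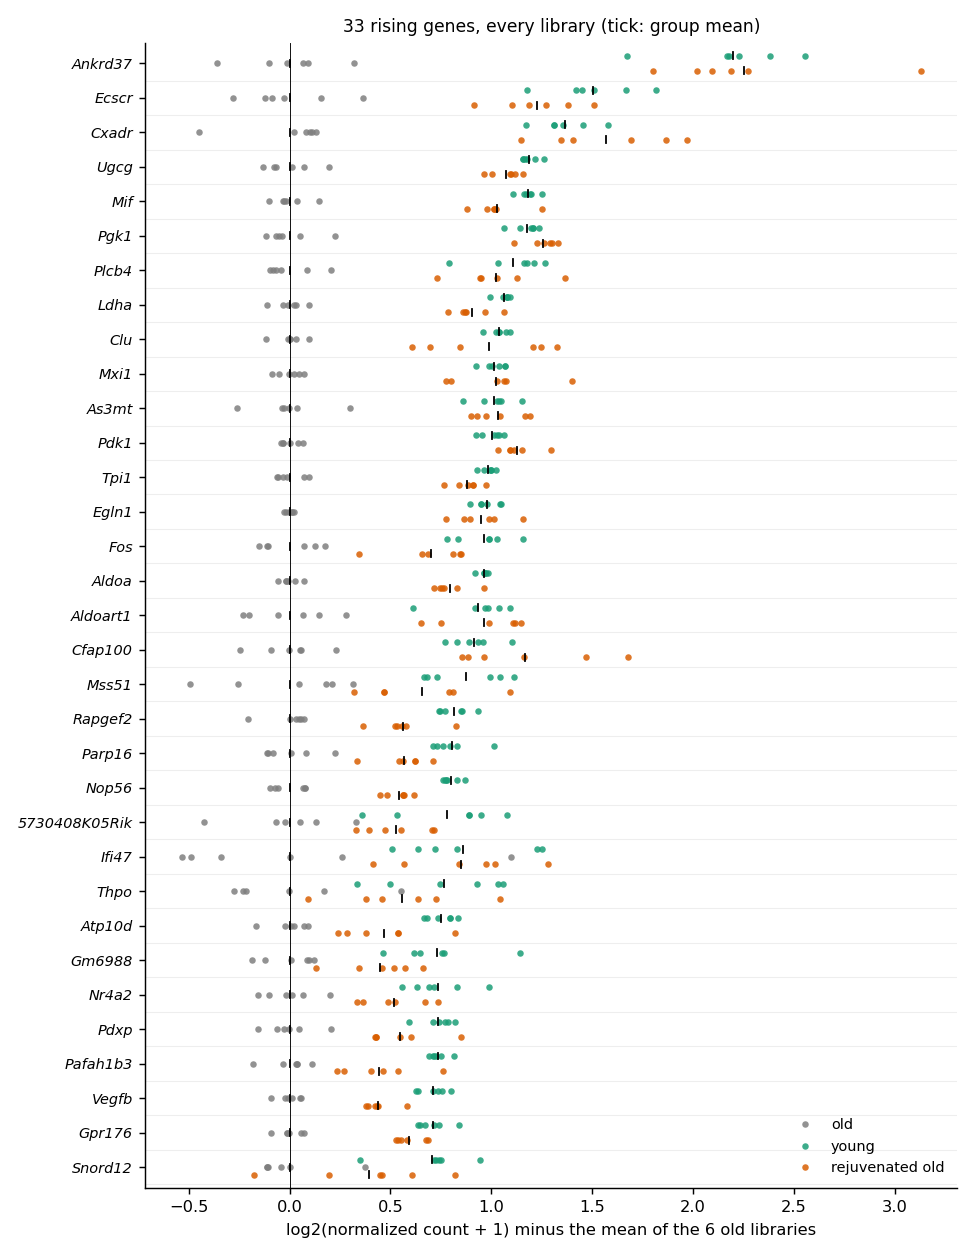
The 33 rising genes in every library, as log2(normalized count + 1) minus the mean of the 6 old libraries, with young above, old in the middle and rejuvenated old below within each row and a tick at each group mean. For 30 of the 33 genes all old libraries (grey) lie below all young (green) and rejuvenated old (orange) ones; Ifi47, Thpo and Snord12 are the exceptions.

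For 30 of the 33 rising genes the 6 old libraries lay wholly below the 12 others. Old libraries lay wholly below the young ones for 30 of the 33, where 37.3% of all genes with this minimum mean had such a gap, and wholly below the rejuvenated old ones for 30, where 11.5% had it. Both held for 5.58% of all genes, and the rule makes such a pattern likely, so nothing is read from it. The rejuvenated old mean stopped short of the young mean for 25 genes and passed it for 8. The share of the young-old difference covered had a median of 83.6% and ran from 58.9% for Snord12 to 131% for Cfap100. For no rising gene did all 6 rejuvenated old libraries lie within the young range. All 6 did so for only 1.31% of all genes with a mean of at least 50, so nothing is read from that count. For Clu, Nop56 and Vegfb no rejuvenated old library lay within the young range.

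Lrrn3, a membrane protein with leucine-rich repeats, had the largest difference of the falling genes that rested on all libraries. It measured 45.7 to 72.6 (median 56) normalized counts in young, 223 to 282 (median 226) in old and 34.5 to 60.4 (median 46.5) in rejuvenated old libraries, and was 4.20 times as high in old as in young and 5.14 times as high in old as in rejuvenated old MSCs. Enpp2 (chr15:54838901-54952789, minus strand), autotaxin, makes lysophosphatidic acid, a signalling lipid. It measured 394 to 441 (median 426) in young, 1283 to 1519 (median 1361) in old and 379 to 472 (median 418) in rejuvenated old libraries. The means ± SD (n = 6) were 423 ± 16.8, 1379 ± 90.9 and 418 ± 33.2, so that old libraries held 3.30 times the rejuvenated old mean and the young and rejuvenated old libraries overlapped.

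Among matrix and secreted proteins, Tnc, tenascin C, a matrix protein of tissue repair, measured 3700.5 to 4223 (median 3977) in young, 6309.9 to 7401 (median 7275) in old and 3100.2 to 4025 (median 3569) in rejuvenated old libraries, with a rejuvenated old mean below the young one. Sparc, which binds collagen and shapes its assembly, measured 21574 to 23701 (median 23249.7), 34225 to 41050.3 (median 38434) and 21026 to 31756 (median 28682). Its replicate 5, at 21026, was the 1 rejuvenated old library below the young range, and the other 5 lay above it. Edil3, a matrix protein that binds integrins, measured 384 to 498 (median 399), 747 to 946 (median 858) and 339 to 476 (median 417), with 5 of 6 rejuvenated old libraries in the young range. Serpine2, an inhibitor of thrombin and other serine proteases, measured 13109 to 16166 (median 15467), 24152 to 28663 (median 26384) and 14154 to 18316 (median 16367). Tnc and Sparc were 2 of 65 genes on a list of matrix proteins other than collagens, which did not hold Edil3. None of 29 collagens with a mean of at least 50 met the rule, where 0.254% of all such genes were falling.

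Among membrane proteins, Cav1, caveolin 1 (chr6:17306335-17341328, plus strand), measured 5391 to 6126 (median 5838) in young, 10303 to 12074 (median 11213) in old and 6215 to 7596 (median 7002) in rejuvenated old libraries. All rejuvenated old libraries lay between the young and the old ranges. Il12rb1, a receptor chain for interleukins 12 and 23, measured 41.8 to 69.8 (median 55.8), 95.2 to 119 (median 107) and 43.4 to 69 (median 58.3). Tmem121b, a transmembrane protein, measured 26.8 to 58.8 (median 33.9), 64.2 to 90 (median 73.9) and 33 to 43.4 (median 35.5). Cnnm2, a magnesium transport protein, measured 312 to 395 (median 349), 561 to 634 (median 584) and 329.5 to 378 (median 351). For these last 3 genes and for the transcription factor Onecut2 (67 to 112 in young, 140.0 to 198 in old and 75.3 to 111 in rejuvenated old) all 6 rejuvenated old libraries lay within the young range, as for 1.31% of all genes with a mean of at least 50. Jam3, a junctional adhesion molecule, differed by -0.47 in L between rejuvenated old and old, and part of its exons lies opposite a predicted gene.

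Among transcription factors, Bhlhe41, a repressor of the circadian clock, measured 41.6 to 70.9 (median 53.5) normalized counts in young, 96.3 to 129 (median 109.7) in old and 52.3 to 78.3 (median 70.7) in rejuvenated old libraries, with its young libraries split between 41.6 to 43.8 and 63.1 to 70.9.

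Metabolic genes were led by Txnip, which binds thioredoxin and lowers glucose uptake. It measured 731 to 866 (median 799.9) in young and 1375 to 1640.4 (median 1518) in old libraries. In rejuvenated old libraries it measured 511, 649 and 417 in replicates 1 to 3, all below the young range, and 1269, 1113 and 924 in replicates 4 to 6, all above it. As for Clu, its mean met the young level and no single library did. Aox1, an aldehyde oxidase, measured 850.3 to 1100.4 (median 1002), 1588 to 1912 (median 1789.8) and 939 to 1180.1 (median 1004), with 5 of 6 rejuvenated old libraries in the young range. Man2b1, the lysosomal alpha-mannosidase, measured 2799 to 3044 (median 2943), 4592 to 5146 (median 4903) and 2995 to 3108 (median 3090.4). Its rejuvenated old libraries had the smallest SD relative to their mean of the 64 genes. It was the 1 gene to meet the rule among 48 lysosomal hydrolases and activators. Of those 48, 31 were called lower and 5 higher in rejuvenated old than in old, where 20.6% and 21% of all tested genes were. None of 49 genes of the lysosomal membrane and its proton pump met the rule, and none of 39 autophagy genes did. Of all genes with that minimum mean, only 0.270% were rising and 0.254% falling, so nothing is read from this. Of 50 tested genes of the lysosomal membrane and its pump, 30 were called lower and 2 higher in rejuvenated old than in old. Over the 49, the median difference in L was -0.22 between young and old and -0.23 between rejuvenated old and old. Of the 39 autophagy genes, 18 were called lower and 5 higher. Differences in L of smaller size between rejuvenated old and old were found for Pde7b, a cyclic AMP phosphodiesterase (-0.69), Dagla, which makes the endocannabinoid 2-arachidonoylglycerol (-0.50), Wdr81, a protein of endosomes (-0.62), and Echdc1, a metabolite-proofreading enzyme (-0.43). Of the exon bases of Echdc1, 78.5% lie opposite Rnf146, so that its counts are uncertain.

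Genes of the cytoskeleton and cell shape formed the last group. Dpysl3, a microtubule-associated protein of growing nerve cells, measured 461 to 558 (median 508) in young, 1149 to 1384 (median 1241) in old and 360.4 to 734 (median 554) in rejuvenated old libraries. Rai14, an actin-binding protein, measured 5309 to 5633 (median 5426), 9652 to 10338 (median 9861) and 5975 to 6966 (median 6457), with all rejuvenated old libraries between the young and old ranges. Amot, angiomotin, which binds the Hippo pathway effector YAP, measured 1046 to 1148 (median 1121), 1881 to 2178 (median 1980.3) and 1053 to 1499 (median 1336). Enc1, a kelch family actin-binding protein (-0.63 in L against old), and Cyfip2, of the complex that starts actin branching (-0.66), complete it. The old libraries of Cyfip2 (92.3 to 135) overlapped its rejuvenated old ones (55.9 to 94.4).

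The remaining falling genes have no named protein. The genes with the identifiers 100047183 and 102623, which the reference table used here does not hold, measured 178 to 287 and 152 to 189.7 in young, 467 to 569 and 356 to 451 in old and 183 to 356 and 139.9 to 216 in rejuvenated old libraries. Gm21399 is annotated as a pseudogene and may share reads with near-identical copies; it measured 581 to 703, 903 to 1249 and 712 to 811. 1700122H20Rik, a long noncoding RNA, measured 1908 in old replicate 4 and at most 2.95 in the other 5 old libraries, 5.44 in young and 5.15 in rejuvenated old libraries. It met the rule through that 1 library and no level of old MSCs can be read from it. Without old replicate 4 it no longer met the rule.

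**Figure D4:**
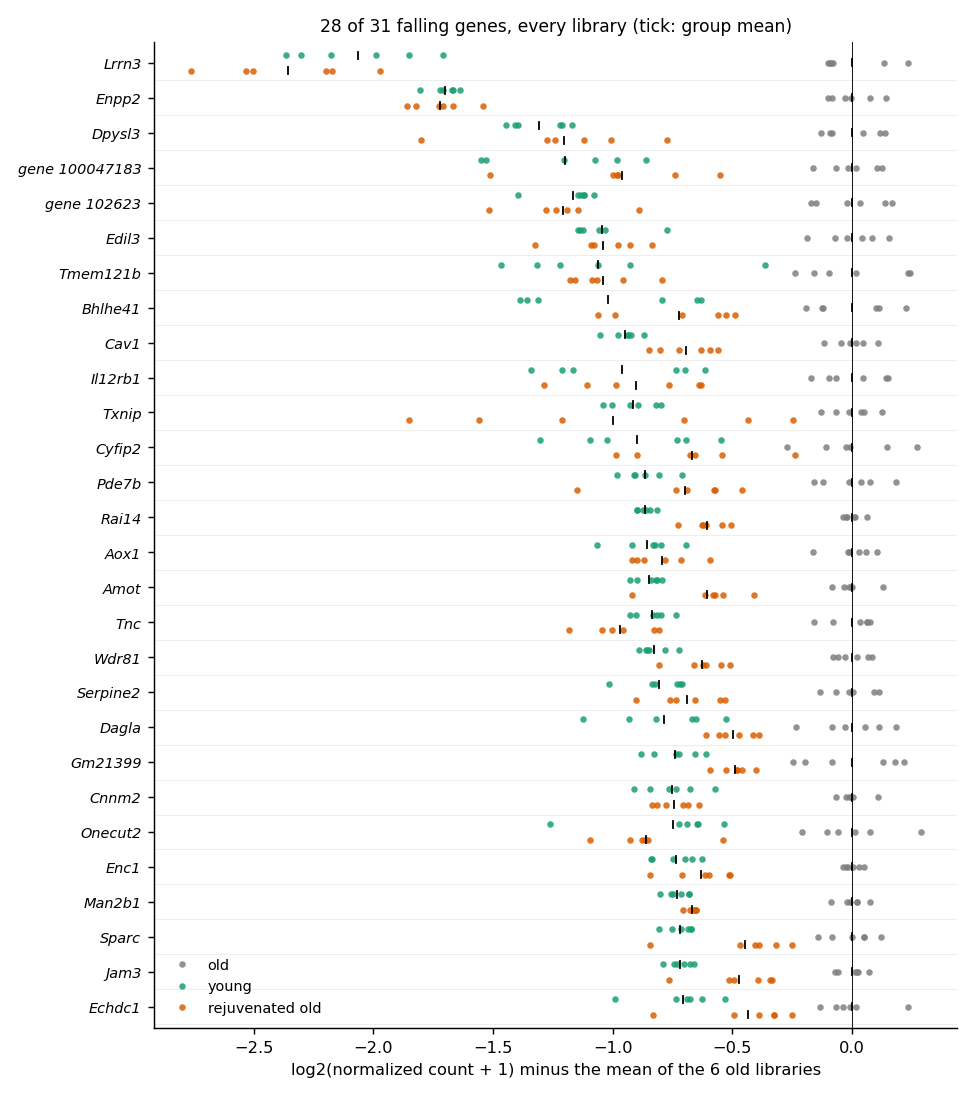
The falling genes named here other than 1700122H20Rik, 28 in all, in every library, as log2(normalized count + 1) minus the mean of the 6 old libraries, with young above, old in the middle and rejuvenated old below within each row and a tick at each group mean. Old libraries (grey) lie above all young (green) and rejuvenated old (orange) ones in 27 of the 28 rows, the exception being Cyfip2; the rejuvenated old libraries of Txnip lie on both sides of the young ones.

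For 29 of the 31 falling genes the 6 old libraries lay wholly above the 12 others, as for 7.86% of all genes with that minimum mean. They lay wholly above the young ones for 30 (39.3% of all genes) and wholly above the rejuvenated old ones for 29 (12.9%). As for the rising genes, nothing is read from these counts. The rejuvenated old mean stopped short of the young one for 24 genes and passed it for 7, and the share of the young-old difference covered had a median of 85.6%, from 60.6% for Sparc to 116% for Onecut2. For 5 falling genes, Cav1, Txnip, Rai14, Gm21399 and Sparc, no rejuvenated old library lay within the young range.

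The 64 genes were a small part of the difference between young and old MSCs. Of 2184 genes higher in young by at least 0.7 in L, 33 (1.51%) met the rule, 770 lay farther from young in rejuvenated old than in old MSCs and 1320 had covered less than 50% of the distance. Another 50 had covered more but stopped short, and 11 had gone past young by more than 0.3. The median share covered was 7.58%. Genes counted as farther from young include those that differed from old MSCs by any amount, however small. Of 2642 genes lower in young by at least 0.7, 31 (1.17%) met the rule, 1103 lay farther away, 1466 had covered less than 50%, 39 more and 3 had gone past, with a median of 2.82%. The opposite outcome can be counted in the same way: 22 genes that were higher and 18 that were lower in young lay, in rejuvenated old MSCs, within 0.3 of a point as far from old as young but on the other side.

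The limits of the rule leave near neighbours out. Just inside the limit of 0.7 were Snord12 (0.70) and Gpr176 (0.71) among rising and Echdc1 (-0.71) and Jam3 (-0.72) among falling genes, and just outside were Rasl12 (0.697) and Creld1 (0.69), and Tec (-0.698) and Adgrl1 (-0.69). Nearest the limit of 0.3 between rejuvenated old and young were, inside, Snord12 (-0.29), Cfap100 (0.29), Lrrn3 (-0.29) and Sparc (0.28), and outside, Higd1a (0.303), Sema6b (-0.31), Parp8 (0.3004) and Slc36a1 (0.303). Of the genes and proteins that the study assayed, Lamp1, Gaa and Atp6v0a2 did not differ enough between young and old to enter (-0.39, -0.31 and -0.59 in L). Their rejuvenated old values lay -0.43, -0.40 and -0.36 from old and -0.05, -0.10 and 0.23 from young, within the limit of 0.3. The study called genes by a false discovery rate and not by the limit of 0.7. Vegfa (-0.16 between young and old) and Cxcl12 (-4.42, with 0.27 between rejuvenated old and old) did not meet the rule. Igf1 was higher in young by 0.76 and in rejuvenated old by 0.22. The values of Vegfa, Cxcl12 and Igf1 are of RNA, whereas the study measured the secreted proteins VEGF, SDF1 and IGF1. For those proteins, rejuvenated old MSCs were compared with old MSCs kept beside other old MSCs.

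The rejuvenated old libraries did not move equally far. With 0 set at the old mean and 1 at the young mean of each gene's log2 values, the median position over the rising genes was 0.783 to 0.884 in 5 of the rejuvenated old libraries and 0.999 in replicate 5, and over the falling genes 0.738 to 0.819 and 1.09. Replicate 5 was the highest rejuvenated old library for 15 of the 33 rising genes and the lowest for 18 of the 31 falling genes. When it was left out, 30 rising and 25 falling genes met the rule, of which 29 and 24 were among the 33 and 31. For the 8 rising genes of glycolysis and hypoxia the medians were 0.816 to 1.13, and all 8 met the rule whichever of the 18 libraries was left out. Scaling the libraries to the same total in place of the deposited size factors gave 29 rising and 32 falling genes, of which 21 and 20 were among the 33 and 31, these 8 included. The spread between rejuvenated old libraries (median SD of log2 values) was 0.167 for rising and 0.161 for falling genes, against 0.104 over all genes with a mean of at least 50, and in young libraries 0.080 and 0.115 against 0.081.

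**Figure D5:**
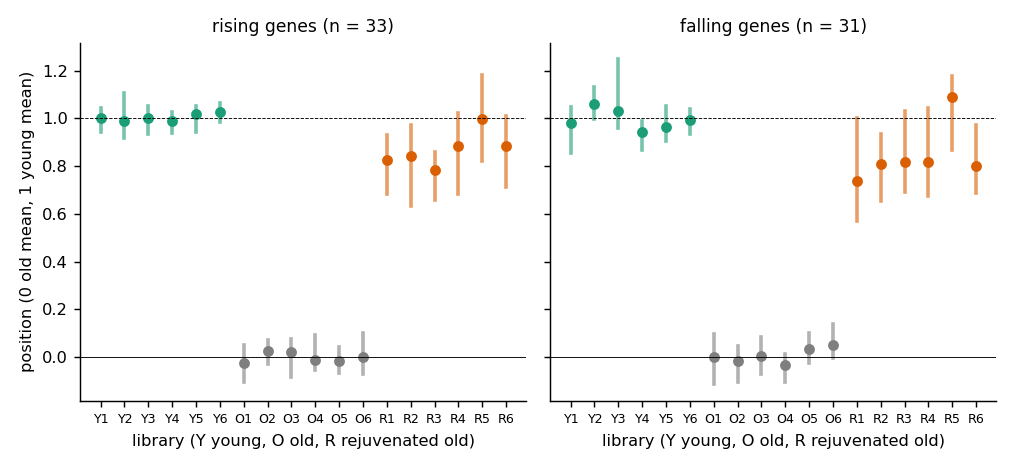
Position of every library between old (0) and young (1), as the median over the 33 rising genes (left) and the 31 falling genes (right), with bars from the lower to the upper quartile over genes. Young libraries lie near 1 and old ones near 0 as the scale sets it; rejuvenated old libraries lie between 0.738 and 0.884 apart from replicate 5, at 0.999 and 1.09.

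RNA of the young partner cells was looked for in the rejuvenated old libraries through 88 genes with at most 3 reads in every old library and a mean of at least 50 in young ones, none of which is among the 64. Their summed count was 2.09% of the young level in rejuvenated old replicate 1, 0.189% to 0.242% in the other 5 and 0.129% to 0.161% in old libraries. The limit of 3 reads keeps the old values low by choice, so they are no baseline for the rejuvenated old ones. As a median over the 88 genes, the level was 2.83% in rejuvenated old replicate 1, 0.108% in replicate 2 and 0 in replicates 3 to 6. In old libraries that median was 0 to 0.105%. Cd34 likewise stood at 402 in its highest rejuvenated old library, against a median of 39.1. Replicate 1 lay at 0.828 over the rising and 0.738 over the falling genes, below replicate 5, and without it 33 rising and 30 falling genes met the rule, of which 30 and 29 were among the 64.

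The 64 genes lay on most chromosomes. The genes of chromosomes 1, 7, 12 and 16 as a whole stood apart between young and old, with median differences in L of -0.69, 0.62, -0.45 and -0.70, against 0.01 or less in size between rejuvenated old and old for 1, 12 and 16 and 0.06 for 7. These chromosomes held 7 rising and 3 falling genes, where 19.2% of all genes with a mean of at least 50 lie on them. On chromosome 16, Cxadr and Thpo were higher in young although most genes there were lower. Without these chromosomes 26 rising and 28 falling genes remained.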

How the data were processed

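RNA sequencing gave 18 libraries, with 6 replicates in every group. Per the study's methods and the submitters' processing notes, the authors aligned reads of a stranded, polyA-selected library to mm10 with HISAT2, counted them per gene with StringTie and featureCounts and normalized them with DESeq2; versions, annotation, strand setting and filters are not given in the sources used here. The deposited values, treated as a signal, are counts divided by a size factor per library. Whole reads were recovered from their steps (100% of values within 0.01 read of a whole number), which gave the depths. Of 27179 genes, 25275 matched the RefSeq table and 984 had no symbol or a date in its place.

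The 64 genes are those of the rule on group means. Limma 3.58.1 (R 4.3.3), with a trend, was fitted to log2(normalized count + 1) of 14353 genes whose mean was at least 10, all 3 groups in one fit, with Benjamini-Hochberg adjustment at 0.05. Alternatives were edgeR 4.0.16 and DESeq2 1.42.0 on recovered reads, other pseudocounts, filters, scalings and limits, a replicate block and leaving out each library. The fits were tested on simulated counts. Named genes were the 10 rising and 10 falling genes with the largest young-old difference, genes with all rejuvenated old libraries in the young range, up to 4 of each gene list, those beside each limit and those the study assayed; the remaining members are named so that each is accounted for, apart from 2 falling genes that are not reported here. Members and lists were chosen with earlier results of these data known. Dixon's critical value for 6 samples was 0.625. No library was a copy of another (chi-square of 2.57 or more per degree of freedom in all 45 pairs within groups).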

Additional observations from a re-analysis of the deposited data

Results flagged for a closer look

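Of 192 groups of 6 libraries, 3 for each of the 64 genes, 15 held a library whose gap to the next was above Dixon's 95% critical value, where chance flags about 1 in 20. Rejuvenated old replicate 5 was the high library for Ankrd37 (312 normalized counts, the others 124 to 172), Mif (15226, the others 11789 to 13024) and Vegfb (2302, the others 1997 to 2081). Over the falling genes its position was 1.09, the other rejuvenated old libraries at 0.738 to 0.819. The summed count of the 88 genes absent from old cells was 2.09% of the young level in rejuvenated old replicate 1, the others at 0.189% to 0.242%.

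In old libraries, replicate 1 was low for Cxadr (53.8, the others 75.04 to 80.8) and Rapgef2 (719, the others 832 to 874). Old replicate 2 was high for Ifi47 (1807, the others 583 to 1009), old replicate 6 for Snord12 (57.7, the others 40.9 to 44.3) and old replicate 4 for 1700122H20Rik (1908, the others 1.00 to 2.95). In young libraries, replicate 1 was low for Ldha (27642, the others 28908 to 29606) and high for 1700122H20Rik (5.44, the others 2.02 to 3.20). Young replicate 4 was low for Aldoa (44013, the others 45392 to 46075) and for gene 102623 (152, the others 181 to 190). Young replicate 2 was high for Parp16 (467, the others 378 to 410), young replicate 5 was high for Edil3 (498, the others 384 to 416) and young replicate 3 was low for Onecut2 (67.0, the others 97.8 to 112).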

How the results depend on the processing

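The number of rising and falling genes moved most with the limits that define them. With no minimum mean it was 122 and 213, with rejuvenated old within 0.2 of young 17 and 16, and with young and old at least 1 apart 12 and 8. Leaving out each library in turn gave 30 to 36 rising and 25 to 35 falling genes, and 18 genes of each direction met the rule in all 18 runs. A minimum mean of 10 gave 46 and 46, one of 200 gave 24 and 22, and TMM scaling 32 and 32. Calls over all genes stayed within 1.5 times under every alternative. For rejuvenated old against old they were 5971, with 5439 to 5994 when each library was left out, 6213 in edgeR (5902 shared) and 6345 in DESeq2 (5885 shared). For young against old they were 12297 (12128 to 12362 without each library), and for rejuvenated old against young 12288 (12119 to 12291). With a replicate block they were 5769, 12219 and 12210. Same-numbered libraries did not deviate together (correlations of -0.15 to 0.07, none highest with its own number). These correlations cannot tell whether same-numbered libraries shared a mouse, a culture or a day of preparation. Precision is lowest for genes near a mean of 50, such as Snord12, which met the rule in 8 of the 18 runs that left out a library.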
